A study of Homo sapiens with 6 samples.

Results

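The 10 genes described here belong to the transforming growth factor beta (TGF-β) and activin pathway. They comprise the ligand genes TGFB1, TGFB2 and INHBA, the genes LTBP1 and THBS1 for proteins that store and activate latent TGF-β, the receptor genes TGFBR1 and TGFBR2, the signal transducer SMAD3, the inhibitor SMAD7 and the target gene TGFBI. They were chosen by symbol as a pathway list, with earlier results of these data known, and all 10 were found among the 25545 genes with expression values. The cells were BT-549, a widely used line of triple-negative breast cancer (TNBC), grown here in serum-containing medium with insulin. It was transfected with a control siRNA (CsiRNA, 3 libraries) or with a commercial siRNA against the long noncoding RNA NEAT1 (NEAT1siRNA, 3 libraries), and stranded mRNA-seq libraries were made from total RNA 48 h later. The titles of all samples, controls included, carry "tet-" before the name of the siRNA, and the labels do not say what it marks. All samples thus come from a single line and a single targeting siRNA, and the labels name no treatment with TGF-β or a receptor inhibitor. The labels say that cells were cultured in triplicate and nothing more on the replicates, so p-values measure the spread between these samples, which may be technical.

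TGF-β ligands are secreted as latent complexes, in which LTBP proteins tether the ligand to the extracellular matrix, and thrombospondin-1 is among the proteins that can release it. Active ligand binds the type II receptor TGFBR2, which recruits and phosphorylates the type I receptor TGFBR1. The type I receptor then phosphorylates SMAD2 and SMAD3, which enter the nucleus with SMAD4 and act on target genes, among them the gene for the inhibitory SMAD7. INHBA encodes the subunit of activin A, a related ligand that uses its own receptors and the same SMADs. In mesenchymal-like TNBC cells, the pathway is best known for its links to matrix production, invasion and the epithelial-mesenchymal transition.

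After NEAT1 silencing, mRNA for 5 of the 10 genes fell: the ligands TGFB2 and INHBA, the latency and activation genes LTBP1 and THBS1, and the type II receptor TGFBR2. Their mean levels with NEAT1siRNA were between 66.0% (THBS1) and 78.9% (INHBA) of those with CsiRNA. The share of all genes tested that was lower was 8.98%. The calls for TGFB2, INHBA and LTBP1 were lost with no filter on low values and when certain single libraries were left out, and those for THBS1 and TGFBR2 were not. None of the 10 genes rose, beside 4.99% of all genes. TGFB1, TGFBR1, SMAD3, SMAD7 and TGFBI did not pass the test. With the GC and length trend described further on removed, SMAD3 was called higher and TGFBR1 lower.

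The upstream sequences of 3 of the genes that fell, a ligand, an activator and a receptor, are shown together with that of CTGF (current symbol CCN2), a target gene described further on, so that the sequence next to the genes whose transcripts moved can be read beside their values. Each is the 250 bases before the annotated start, read 5′ to 3′ on the gene's strand from RefSeq on GRCh38.p14. TGFB2 lies at chr1:218345086-218345335 on the plus strand, THBS1 at chr15:39580829-39581078 on the plus strand, TGFBR2 at chr3:30606351-30606600 on the plus strand, and CTGF at chr6:131951373-131951622 on the minus strand. Capitals mark matches on either strand to CAGAC (the core of SMAD-binding elements) or GGAATG (bound by TEAD factors).
TGFB2: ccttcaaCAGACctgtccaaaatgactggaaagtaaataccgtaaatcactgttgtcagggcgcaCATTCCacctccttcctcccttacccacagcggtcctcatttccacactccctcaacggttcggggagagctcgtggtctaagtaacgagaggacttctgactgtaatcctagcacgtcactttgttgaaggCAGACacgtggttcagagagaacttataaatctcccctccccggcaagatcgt
THBS1: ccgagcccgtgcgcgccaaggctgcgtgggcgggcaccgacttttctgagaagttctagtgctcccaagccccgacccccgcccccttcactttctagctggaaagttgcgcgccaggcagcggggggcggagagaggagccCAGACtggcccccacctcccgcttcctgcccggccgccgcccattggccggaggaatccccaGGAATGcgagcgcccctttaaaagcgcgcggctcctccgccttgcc
TGFBR2: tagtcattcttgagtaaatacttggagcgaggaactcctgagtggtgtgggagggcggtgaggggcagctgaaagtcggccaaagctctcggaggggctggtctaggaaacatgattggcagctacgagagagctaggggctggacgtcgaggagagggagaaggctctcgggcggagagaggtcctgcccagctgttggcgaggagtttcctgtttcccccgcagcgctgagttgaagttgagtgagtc
CTGF: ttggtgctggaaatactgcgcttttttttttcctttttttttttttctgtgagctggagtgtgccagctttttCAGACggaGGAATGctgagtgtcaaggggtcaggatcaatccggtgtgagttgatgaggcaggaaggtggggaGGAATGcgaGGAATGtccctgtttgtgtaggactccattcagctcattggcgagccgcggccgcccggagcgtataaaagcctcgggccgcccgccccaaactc

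Windows of this length were found for all 10 genes. Some genes had several, such as TGFBR1 with 8 and TGFBR2 with 2. For each gene, only the window nearest the annotated canonical start was searched, whereas the background counts every window. CAGAC was present in 5 of the 10 (TGFB2, LTBP1, THBS1, TGFBR1 and SMAD7), beside 38.0% of all 35116 such windows. TGFBR1 and SMAD7, which held it, did not pass the test of expression. GGAATG was present in 2 of the 10, TGFB2 and THBS1, beside 11.9% of all windows, and in the CTGF window it occurred at 3 places. The palindromic SMAD element GTCTAGAC was in 0.182% of all windows and the AP-1 element TGANTCA in 6.57%, and 0 of the 10 held either. No motif searched contains another. TGFBR2 and INHBA, whose transcripts fell, held no match in the windows searched. A match describes the letters only, and binding was not measured in these data.

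Expression was deposited as TPM (reads per gene divided by transcript length and scaled to the same total in each library). Between 64.4% and 68.1% of TPM per library was taken by 4 short noncoding RNAs (RN7SK, RN7SL1, RN7SL2 and RPPH1), which held 2.19% to 3.06% of the reads. The reads behind the TPM were recovered by joining the deposited tables, and 99.9% of 96718 values were whole to within 0.05 reads. Recovered reads were 17255634 to 20354558 per library with CsiRNA and 15773988 to 20157724 with NEAT1siRNA. Groups were compared with limma on log2(TPM + 1) for 10721 genes, those whose TPM averaged 1 or more over the libraries. Log2 fold changes are NEAT1siRNA minus CsiRNA on that scale, which understates changes of low genes, and they carry a standard error (SE) and a p-value adjusted over all genes tested. Of these genes, 963 were lower and 535 higher at an adjusted p under 0.05. The same comparison on the recovered reads used limma's voom, and named 1201 lower and 1268 higher.

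NEAT1 itself was at 13.4, 7.68 and 10.8 TPM in the CsiRNA libraries and at 4.36, 2.96 and 2.73 TPM in the NEAT1siRNA libraries. Its groups did not overlap, and the mean with NEAT1siRNA was 31.5% of that with CsiRNA (log2 fold change -1.41, SE 0.14, limma adjusted p = 1.21e-07). The mesenchymal markers VIM, CDH2, ZEB1 and SPARC were expressed in every library, with VIM at 859 to 1112 TPM. The 12 epithelial, luminal, blood and endothelial markers examined, among them EPCAM, CDH1, ESR1 and PTPRC, reached at most 0.283 TPM, so the markers present were those of a mesenchymal-like line.

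**Figure D1:**
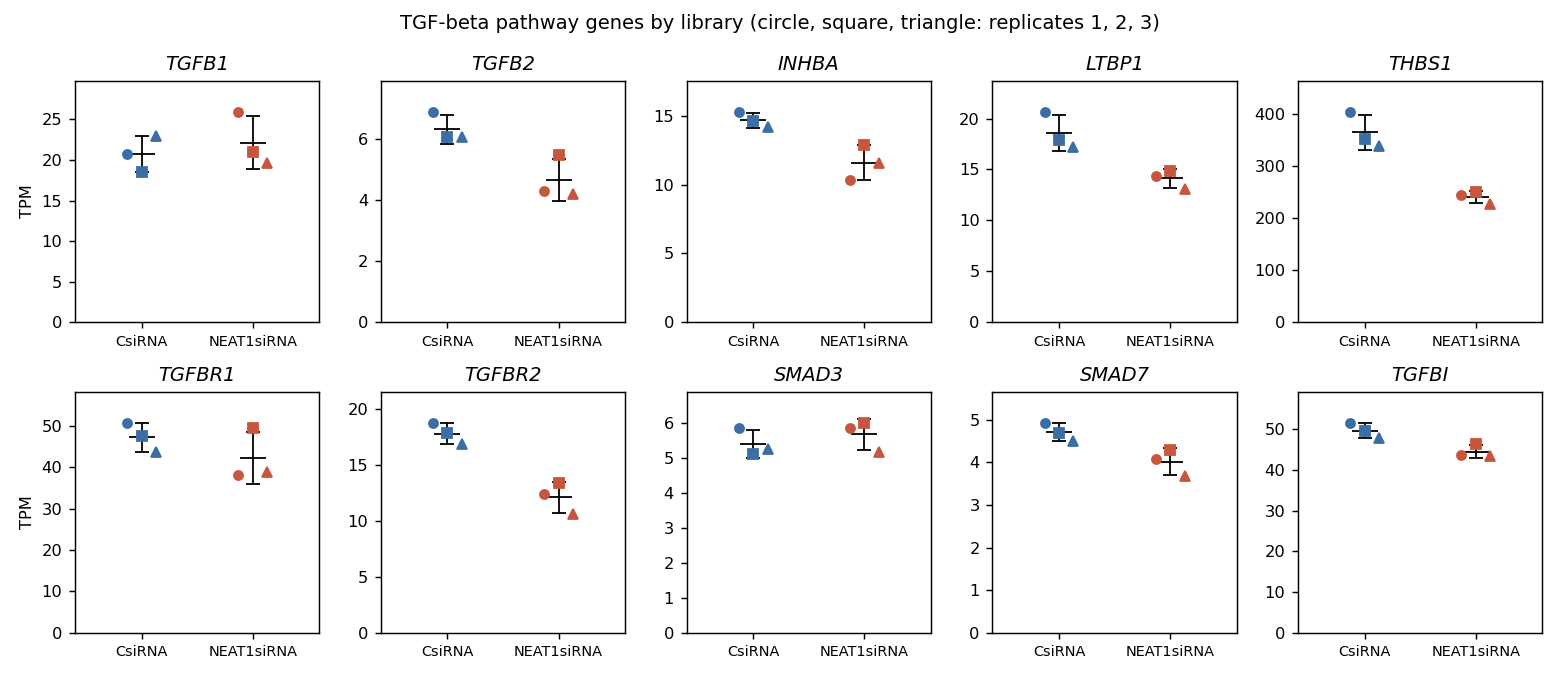
TPM (y axes, linear from 0, scale differing by panel) of the 10 genes in CsiRNA (blue) and NEAT1siRNA (red) libraries; circles, squares and triangles are replicates 1, 2 and 3, and bars are mean ± SD (n = 3). The NEAT1siRNA points lie under all CsiRNA points for 7 genes and overlap them for TGFB1, TGFBR1 and SMAD3. Over all genes tested, 19.3% had every NEAT1siRNA value under the CsiRNA range. Of the 7, SMAD7 and TGFBI did not pass the test.

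Among the ligands, TGFB2 was at 6.85, 6.04 and 6.04 TPM with CsiRNA and at 4.28, 5.45 and 4.20 TPM with NEAT1siRNA. TGFB2 encodes the TGF-β isoform that needs the co-receptor betaglycan for efficient receptor binding. Its groups did not overlap, with NEAT1siRNA replicate 2 closest to the controls. TGFB2 fell by 0.38 on the log2 scale (SE 0.10, limma adjusted p = 0.0130), to 73.6% of its CsiRNA mean, on 522 to 918 recovered reads per library. INHBA was at 15.3, 14.6 and 14.2 TPM with CsiRNA and at 10.3, 12.9 and 11.6 TPM with NEAT1siRNA. It fell by 0.32 (SE 0.10, limma adjusted p = 0.0258), and again NEAT1siRNA replicate 2 was the highest of its group. The call for INHBA was the least stable of the 5, since it was lost without CsiRNA replicate 1 (limma adjusted p = 0.112), CsiRNA replicate 2 (0.0627), NEAT1siRNA replicate 1 (0.139) or NEAT1siRNA replicate 3 (0.0784). The call for TGFB2 was lost without CsiRNA replicate 1 (0.0849) or NEAT1siRNA replicate 3 (0.0864).

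TGFB1, the most widely expressed isoform, was the most abundant of the 3 ligand transcripts in TPM. It was at 20.7, 18.6 and 22.9 TPM with CsiRNA and at 25.9, 21.0 and 19.6 TPM with NEAT1siRNA. The groups overlapped, with the highest value in NEAT1siRNA replicate 1, and the log2 fold change was 0.09 (SE 0.10, limma adjusted p = 0.644). Without that library it was -0.025. The ratio of TGFB2 to TGFB1 TPM within a library was 0.331, 0.325 and 0.263 with CsiRNA and 0.166, 0.260 and 0.214 with NEAT1siRNA. The ratios did not overlap between groups (mean log2 difference -0.54), although CsiRNA replicate 3 and NEAT1siRNA replicate 2 nearly met. The transcripts differ in GC content (TGFB2 42.2%, TGFB1 63.6%), and the part of the GC trend described further on in their ratio was not tested. This ratio, like the one for the receptors given further on, was chosen after the values had been seen, and an exact two-sided permutation test of 3 against 3 libraries cannot go below p = 0.1, the value it gave for both ratios.

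An antisense transcript, TGFB2-AS1, overlaps the start of TGFB2. It was at 1.89, 1.19 and 1.11 TPM with CsiRNA and at 0.639, 0.760 and 0.685 TPM with NEAT1siRNA, on a mean of 6.5 recovered reads. It was lower by limma (log2 fold change -0.49, adjusted p = 0.00428) and was not called on recovered reads (voom adjusted p = 0.0985). TGFB2-AS1 averaged 1.40 TPM with CsiRNA and 0.695 TPM with NEAT1siRNA. It thus passed the filter of 1 TPM only through the CsiRNA libraries, and its limma call is not independent of that filter. Whether the counting used strand is not given in the sources used here, so reads of TGFB2 and TGFB2-AS1 may not be fully separated.

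The other ligand genes of the pathway listed for comparison were mostly at low levels. Of 9 listed, 7 did not reach a mean of 1 TPM, and the 2 tested, TGFB3 and the SMAD2/3-activating ligand GDF11, were not called. GDF11 was at 6.58, 5.76 and 5.86 TPM with CsiRNA and at 6.82, 6.30 and 5.96 TPM with NEAT1siRNA (log2 fold change 0.06, limma adjusted p = 0.741), so the groups overlapped. With the GC and length trend described further on removed, GDF11 was higher by 0.17 (limma adjusted p = 0.0168).

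THBS1 had the highest level and the largest fold change of the 10 genes. It encodes thrombospondin-1, a secreted matrix glycoprotein that can activate latent TGF-β. THBS1 was at 403, 353 and 339 TPM with CsiRNA and at 244, 251 and 228 TPM with NEAT1siRNA, with a gap between groups wider than either group's own range. It fell by 0.59 (SE 0.09, limma adjusted p = 4.03e-05) on 34429 to 62758 recovered reads per library. LTBP1, whose product tethers latent TGF-β to the matrix, was at 20.6, 17.9 and 17.2 TPM with CsiRNA and at 14.4, 14.9 and 13.1 TPM with NEAT1siRNA. It fell by 0.37 (SE 0.10, limma adjusted p = 0.0104) without overlap of the groups, and the call was lost without CsiRNA replicate 1 (0.0923) or NEAT1siRNA replicate 3 (0.0748).

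Of the 11 other latency and activation genes listed, 6 were tested. Of these, 1 was lower and 0 were higher, beside 8.98% and 4.99% of all genes tested. The lower gene was LTBP2, a matrix protein related to LTBP1 that does not bind latent TGF-β. It was at 15.4, 12.8 and 13.97 TPM with CsiRNA and at 9.26, 8.57 and 8.04 TPM with NEAT1siRNA (log2 fold change -0.65, SE 0.10, limma adjusted p = 5.28e-05). ITGAV, the integrin subunit that partners the integrins known to activate latent TGF-β, was at 46.5, 43.1 and 38.8 TPM with CsiRNA and at 35.9, 47.9 and 38.2 TPM with NEAT1siRNA. These groups overlapped, and its log2 fold change was -0.08 (limma adjusted p = 0.673).

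TGFBR2, the type II receptor, was at 18.8, 17.9 and 16.9 TPM with CsiRNA and at 12.4, 13.4 and 10.6 TPM with NEAT1siRNA, on 1021 to 1982 recovered reads per library. Every NEAT1siRNA value lay under every CsiRNA value, and TGFBR2 fell by 0.52 (SE 0.10, limma adjusted p = 0.000604), to 68.1% of its CsiRNA mean. THBS1 and TGFBR2 were lower with an adjusted p under 0.05 in each of the 17 other settings run, the removal of any single library included.

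TGFBR1, the type I partner of TGFBR2, was at 50.7, 47.5 and 43.7 TPM with CsiRNA and at 38.2, 49.5 and 38.9 TPM with NEAT1siRNA. NEAT1siRNA replicate 2 lay among the controls while the other two lay under them, and TGFBR1 did not pass the test (log2 fold change -0.17, SE 0.10, limma adjusted p = 0.299). Without NEAT1siRNA replicate 2, the log2 fold change was -0.28 and the adjusted p 0.0156. Within each library the ratio of TGFBR2 to TGFBR1 was 0.371, 0.376 and 0.386 with CsiRNA and 0.324, 0.270 and 0.274 with NEAT1siRNA. The type II receptor transcript was thus lower relative to the type I receptor transcript in each NEAT1siRNA library than in any control library (mean log2 difference -0.39).

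The co-receptor TGFBR3 (betaglycan), which presents TGF-β to TGFBR2, moved the other way. It was at 5.95, 5.46 and 5.05 TPM with CsiRNA and at 7.80, 8.89 and 7.37 TPM with NEAT1siRNA, without overlap, and it rose by 0.47 (SE 0.10, limma adjusted p = 0.00165), a call lost with no filter on TPM (0.0541). It was the 1 gene called among 4 tested of the 7 other receptor genes listed. Over all genes tested, 8.98% were lower and 4.99% higher. ACVR1B, a type I receptor for activin, was at 4.69, 4.37 and 4.03 TPM with CsiRNA and at 4.53, 4.46 and 3.89 TPM with NEAT1siRNA (log2 fold change -0.02, limma adjusted p = 0.925), and the groups overlapped.

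**Figure D2:**
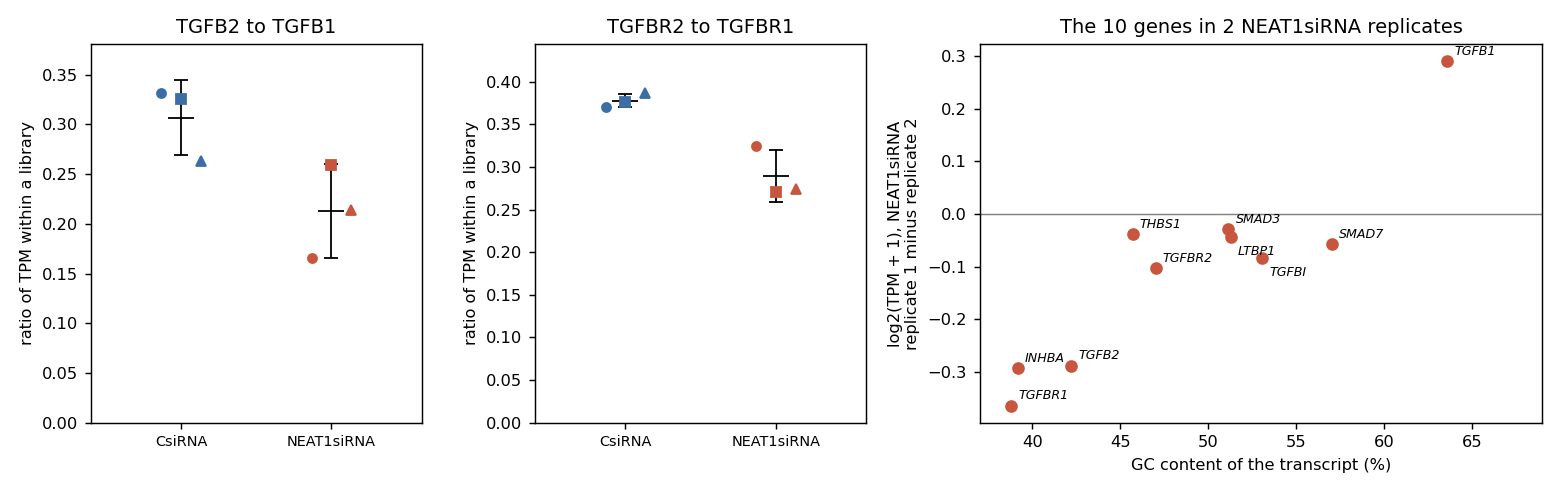
Left and middle: ratio of TGFB2 to TGFB1 TPM and of TGFBR2 to TGFBR1 TPM in each library (circles, squares and triangles: replicates 1, 2 and 3; bars: mean ± SD, n = 3), with every NEAT1siRNA ratio (red) under every CsiRNA ratio (blue). Right: difference in log2(TPM + 1) between NEAT1siRNA replicates 1 and 2 (y axis) against transcript GC content in percent (x axis) for the 10 genes, from -0.36 for TGFBR1 at 38.8% GC to 0.29 for TGFB1 at 63.6% GC.

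SMAD3 was at 5.86, 5.12 and 5.26 TPM with CsiRNA and at 5.86, 6.003 and 5.19 TPM with NEAT1siRNA. The groups overlapped and SMAD3 did not pass the test (log2 fold change 0.06, SE 0.10, limma adjusted p = 0.737). With the GC and length trend described further on removed, SMAD3 was higher by 0.15 (limma adjusted p = 0.0264). Of the 7 other SMAD and cofactor genes listed, 6 were tested, SMAD2 and SMAD4 among them, and 0 were lower and 0 higher by either fit. Over all genes tested, 8.98% were lower and 4.99% higher by limma, and 11.2% and 11.8% by voom. TRIM33, a ubiquitin ligase that acts on SMAD4, was at 17.0, 14.1 and 14.2 TPM with CsiRNA and at 13.8, 16.7 and 14.1 TPM with NEAT1siRNA, which overlap (log2 fold change -0.02, limma adjusted p = 0.910).

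SMAD7, a direct target of the pathway that blocks its receptors, was at 4.92, 4.70 and 4.50 TPM with CsiRNA and at 4.08, 4.29 and 3.67 TPM with NEAT1siRNA. All NEAT1siRNA values were under the controls, but the difference did not pass the test (log2 fold change -0.19, SE 0.09, limma adjusted p = 0.201). Of the 18 other inhibitor and feedback genes listed, 15 were tested. Of these, 1 was lower and 0 were higher, beside 8.98% and 4.99% of all genes tested. The lower gene was SMURF2, a ubiquitin ligase that SMAD7 brings to the receptors for degradation, at 38.3, 35.6 and 33.4 TPM with CsiRNA and 22.5, 25.8 and 20.6 TPM with NEAT1siRNA. SMURF2 fell by 0.62 (SE 0.10, limma adjusted p = 8.26e-05), without overlap. FKBP1A, which binds the inactive type I receptor, was at 123, 119 and 114 TPM with CsiRNA and at 121, 122 and 117 TPM with NEAT1siRNA, and was not called (log2 fold change 0.02, limma adjusted p = 0.925).

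TGFBI, a secreted matrix protein first found as a gene induced by TGF-β, was at 51.4, 49.6 and 47.8 TPM with CsiRNA and at 43.7, 46.3 and 43.3 TPM with NEAT1siRNA. The groups did not overlap, but the step between them was small, and TGFBI did not pass the test (log2 fold change -0.16, SE 0.09, limma adjusted p = 0.262). A target gene commonly used as a reporter of the pathway differed more. CTGF, a matricellular protein whose gene also responds to YAP and TEAD, was at 192, 172 and 161 TPM with CsiRNA and at 87.2, 93.8 and 79.9 TPM with NEAT1siRNA. It fell by 0.999 on the log2 scale (SE 0.09, limma adjusted p = 3.46e-08). Its groups did not overlap, and the mean with NEAT1siRNA was 49.7% of that with CsiRNA.

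Of the 29 other target genes listed, 21 were tested. Of these, 5 were lower and 3 were higher, beside 8.98% and 4.99% of all genes tested. Beside CTGF, the lower genes included ANGPTL4, FN1 and HMGA2. ANGPTL4, an inhibitor of lipoprotein lipase, was at 6.05, 5.52 and 5.53 TPM with CsiRNA and at 3.20, 3.05 and 3.44 TPM with NEAT1siRNA (log2 fold change -0.66, SE 0.09, limma adjusted p = 2.78e-05). FN1, which encodes fibronectin, was at 93.8, 78.1 and 83.7 TPM with CsiRNA and at 66.4, 60.6 and 56.3 TPM with NEAT1siRNA (log2 fold change -0.47, limma adjusted p = 0.00116), a call lost with no filter on TPM (0.0515). HMGA2, a chromatin protein, had a log2 fold change of -0.34 (limma adjusted p = 0.0337), and its call was lost without CsiRNA replicate 1 (0.192), NEAT1siRNA replicate 1 (0.0778) or NEAT1siRNA replicate 3 (0.168).

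The higher target genes were CDKN2B, SNAI1 and BHLHE40. CDKN2B, which encodes the cell cycle inhibitor p15, was at 17.8, 16.4 and 16.0 TPM with CsiRNA and at 23.7, 30.1 and 25.4 TPM with NEAT1siRNA, without overlap, and it rose by 0.62 (SE 0.10, limma adjusted p = 9.59e-05). SNAI1, a repressor of epithelial genes, was at 2.88, 2.48 and 2.65 TPM with CsiRNA and at 4.59, 4.66 and 4.09 TPM with NEAT1siRNA (log2 fold change 0.57, limma adjusted p = 0.000201). BHLHE40, a transcriptional repressor, was at 11.7, 11.3 and 11.3 TPM with CsiRNA and at 15.9, 16.1 and 14.9 TPM with NEAT1siRNA (log2 fold change 0.41, limma adjusted p = 0.00275). The called targets thus moved in both directions after NEAT1 silencing. COL1A1, the most abundant tested target that was not called, was at 172, 148 and 180.0 TPM with CsiRNA and at 154, 135 and 134 TPM with NEAT1siRNA (log2 fold change -0.24, limma adjusted p = 0.0845), and its groups overlapped. COL1A1 was lower with an adjusted p under 0.05 when CsiRNA replicate 2 (0.0490) or NEAT1siRNA replicate 1 (0.0373) was left out, and with the GC and length trend described further on removed (0.0130). Of the target genes described above, SNAI1, FN1, BHLHE40 and HMGA2 fell outside the rule for naming genes and were added after their values had been seen.

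**Figure D3:**
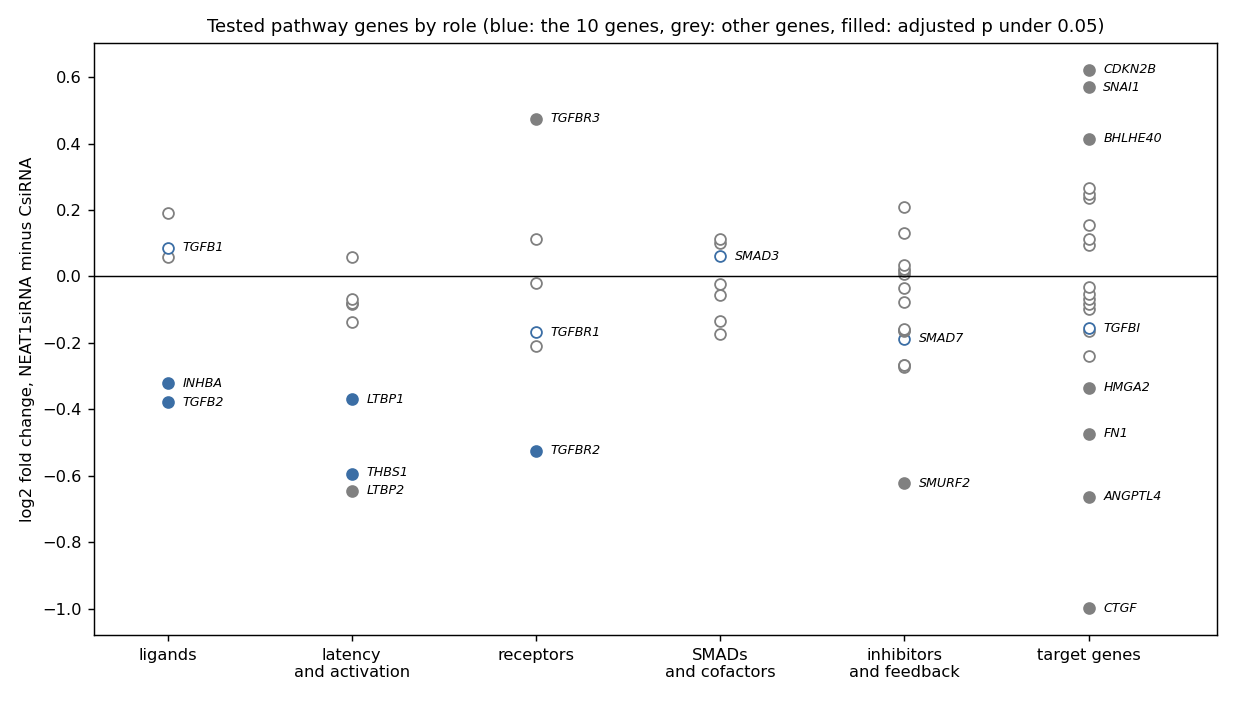
Log2 fold change in log2(TPM + 1), NEAT1siRNA minus CsiRNA (y axis), of the 10 genes (blue) and of the 54 other tested pathway genes but 1 (grey), grouped by role (x axis); filled points have a limma adjusted p under 0.05. Called genes lie under 0 among the ligands, the latency and activation genes and the inhibitors, and on both sides among the receptors and the targets, with CTGF lowest and CDKN2B highest of those drawn.

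Counted together, 5 of the 10 genes were lower, beside 8.98% of all genes tested, and 0 were higher, beside 4.99% of all. The 5 became 2 with no filter on TPM, without CsiRNA replicate 1 or without NEAT1siRNA replicate 3. The NEAT1siRNA values of 7 of the 10 lay under the CsiRNA range, beside 19.3% of all genes tested, and those of 0 of the 10 lay above it, beside 11.0%. The median log2 fold change of the 10 was -0.25, beside -0.044 over all genes tested. On recovered reads, 5 of the 10 were lower, the same genes, beside 11.2% of all, and 0 were higher, beside 11.8%, with a median of -0.23 beside 0.0078. Of the 81 other pathway genes listed, 54 were tested, 7 were lower and 4 were higher (limma), while 12 lay under the CsiRNA range and 10 above it. Their median log2 fold change was -0.054, close to that of all genes. On recovered reads 9 of the 54 were lower, also including SMURF1 and PMEPA1. The 9 higher ones also included ACTA2, MMP2, TAGLN, CDKN1A and SMAD6.

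**Figure D4:**
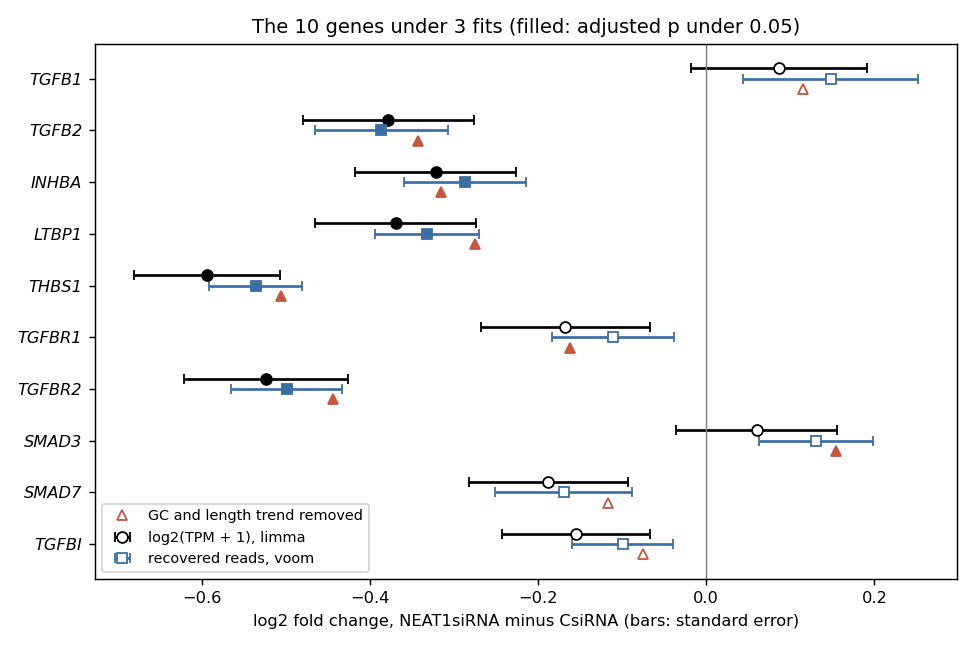
Log2 fold change, NEAT1siRNA minus CsiRNA (x axis), of each of the 10 genes (y axis) on log2(TPM + 1) with limma (black circles), on recovered reads with voom (blue squares) and after a trend on GC content and length was taken out (red triangles, no bar); bars are the standard error and filled symbols have an adjusted p under 0.05. TGFB2, INHBA, LTBP1, THBS1 and TGFBR2 are filled and under 0 in each fit, and TGFBR1 and SMAD3 are filled once the trend is taken out.

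The NEAT1siRNA libraries differed from each other by the GC content of the transcripts, and several of the 10 genes followed this. Across 10424 genes, a library's deviation from its group mean correlated with GC content with Spearman's rho between -0.34 and 0.47 in the CsiRNA libraries, and with 0.68, -0.73 and 0.14 in NEAT1siRNA replicates 1, 2 and 3, a description across genes, which are not independent. Between NEAT1siRNA replicates 1 and 2, the difference in log2(TPM + 1) had a median of -0.27 in genes under the lower quartile of GC content (41.3%) and 0.092 in genes over the upper quartile (55.9%). TGFBR1 (38.8% GC), INHBA (39.1%) and TGFB2 (42.2%) differed between these replicates by -0.36, -0.29 and -0.29, and TGFB1 (63.6%) by 0.29, while the other 6 genes differed by -0.10 to -0.03. The genes that differed most between these replicates were thus the ones with the lowest and the highest GC content of the 10, and the part of GC content in their group differences was not tested beyond the correction that follows.

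When a smooth trend on GC and length was removed from each library, 6 of the 10 genes were lower, beside 16.9% of all genes tested, and 1 was higher, beside 16.3%. The 5 genes called before stayed lower, with log2 fold changes from -0.51 (THBS1) to -0.28 (LTBP1). TGFBR1 joined them (-0.16, limma adjusted p = 0.0150). SMAD3 was then higher by 0.15 (limma adjusted p = 0.0264). This fit called over 3 times as many genes higher as the fit without it, and TGFBR1 and SMAD3 passed in no other setting that kept all 6 libraries, apart from the same correction with a replicate block.

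The gene coordinates, on GRCh38, are as follows. TGFB2 spans 218345336 to 218444619 on chromosome 1, LTBP1 spans 32946953 to 33399509 on chromosome 2, and TGFBR2 spans 30606601 to 30694142 on chromosome 3. TGFBI spans 136028988 to 136063818 on chromosome 5, INHBA spans 41667168 to 41705834 on chromosome 7, and TGFBR1 spans 99104038 to 99154192 on chromosome 9. THBS1 (39581079 to 39599466) and SMAD3 (67063763 to 67195173) share chromosome 15. SMAD7 spans 48919853 to 48950965 on chromosome 18 and TGFB1 spans 41301587 to 41353922 on chromosome 19. The values are per gene, so no isoform, exon or UTR was measured separately.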

How the data were processed

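The data were RNA-seq of BT-549 cells 48 h after transfection with CsiRNA or NEAT1siRNA (3 libraries each). The authors aligned stranded mRNA reads to GRCh38 with STAR and compared groups with DESeq2, per the labels and methods. They deposited TPM per gene and library. They also deposited a comparison table, whose mean normalized count per gene (a signal, averaged by them over the libraries) was used here to recover reads, and whose fold changes and p-values were not used. The counting tool, its use of strand and its gene lengths are not given in the sources used here.

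Groups followed the labels. TPM were transformed to log2(TPM + 1), genes averaging 1 TPM or more were kept, and lmFit and eBayes with trend (limma 3.58.1, R 4.3.3) were applied, with Benjamini-Hochberg adjustment over all genes tested and a threshold of 0.05. Reads were recovered by fitting, per library, the scale that turns TPM into whole reads (within 0.05 reads), and were compared with voom after TMM scaling, trimming 30% of ratios and 5% of abundances. The GC and length trend was a spline with 4 degrees of freedom per covariate, fitted for the 97.2% of genes tested whose symbol had an annotation. The limma fit on log2(TPM + 1) and the voom fit were also run on simulated reads, which held no GC trend. The fit with the GC and length trend removed was not. Permutation tests were run, and tables and plots made, in Python 3.11.15 (pandas 2.3.3, matplotlib 3.10.9).

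The genes named by rule were the 10 pathway genes, NEAT1 and CTGF. From each role list, the rule added up to 4 others with the largest change past the threshold. It also added the 1 with the highest mean TPM among those not past it. Outside this rule are TGFB2-AS1, which was in no list, and further listed genes. Among these are TGFB3, SMURF1, SNAI1, FN1, BHLHE40, HMGA2, LRRC32, ENG, ACVR2B and NEDD4L. The 10 genes and the lists were chosen with earlier results of these data known. Other settings were a pseudocount of 0.1, no filter, a filter at 5 TPM, quantile normalization, median centring, TPM rescaled without the 4 short RNAs, eBayes without trend, a block on replicate number, and each library left out in turn. Library pairs of 1 group differed by more than counting noise (chi-square per degree of freedom 5.40 to 18.3), so none was treated as a copy of another, which does not show that they are independent cultures. Promoter windows came from RefSeq. The result of 1 gene that was part of the rule is not reported here.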

Additional observations from a re-analysis of the deposited data

How the results depend on the processing

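In the settings run, THBS1, TGFBR2, CTGF and NEAT1 kept their direction and their call. So did the lower genes LTBP2, SMURF2 and ANGPTL4 and the higher genes CDKN2B, SNAI1 and BHLHE40, wherever they were tested. With no filter on TPM, 2 of the 10 genes were lower, and TGFB2, INHBA and LTBP1 were not called (limma adjusted p = 0.126, 0.108 and 0.0804), nor were TGFBR3, FN1 and HMGA2 (0.0541, 0.0515 and 0.200), while over all genes 263 were lower and 242 higher of 18531 tested. With each library left out in turn, 2 to 6 of the 10 genes and 6 to 11 of the 54 others were lower, 0 and 4 were higher, and over all genes 383 to 1590 were lower and 376 to 540 higher, the fewest lower without CsiRNA replicate 1 (383) or NEAT1siRNA replicate 3 (425), and the most without NEAT1siRNA replicate 2 (1590). Both of the first left 2 of the 10 lower. The 963 lower and 535 higher genes became 1109 and 1082 under quantile normalization, 954 and 1158 under median centring, 1174 and 918 with TPM rescaled without the 4 short RNAs, and 1201 and 1268 with voom. Of the 54 other pathway genes, 9 were higher under quantile normalization, median centring and voom. With the GC and length trend removed, 13 were lower and 15 higher, and 1764 and 1704 over all genes, and with the replicate block added these were 12 and 15, and 1707 and 1683, with 1 of the 10 higher in both. The replicate block alone gave 1061 lower and 579 higher over all genes, 8 and 4 among the 54, and 5 of the 10 lower. Deviations of same-numbered libraries correlated by -0.030, 0.25 and -0.11, so the numbers were not taken as pairs. Of the values near 0, the sign changed for TGFB1 (-0.025 without NEAT1siRNA replicate 1, leave-one-out range up to 0.17), FKBP1A (-0.012 without CsiRNA replicate 3, up to 0.046) and ITGAV (0.0030 without NEAT1siRNA replicate 1, down to -0.20). ACVR1B became 0.039 under quantile normalization, 0.037 under median centring, 0.0076 rescaled, 0.067 with the trend removed, with or without the block, 0.037 with voom, and 0.024 and 0.036 without CsiRNA replicate 1 or NEAT1siRNA replicate 3 (lowest -0.064, without CsiRNA replicate 3). TRIM33 became 0.029, 0.033, 0.0065, 0.0038 and 0.034 in the same order, and 0.059, 0.025 and 0.0085 without CsiRNA replicate 1, NEAT1siRNA replicate 1 or NEAT1siRNA replicate 3. The cause of these changes was not tested. The 10 genes had at least 252 recovered reads in any library, and each group had 3 libraries.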

Other observations

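LRRC32 (GARP), which holds latent TGF-β on the cell surface, did not reach the mean of 1 TPM needed for the test, and is named here after its values had been seen. It was at 0.468, 0.308 and 0.371 TPM in the CsiRNA libraries and at 0.984, 1.05 and 1.04 TPM in the NEAT1siRNA libraries, on a mean of 67.8 recovered reads. The NEAT1siRNA values all lay above the controls, at 268% of the CsiRNA mean. In the fit with no filter on TPM, its log2 fold change was 0.55 (SE 0.05, limma adjusted p = 0.0116).

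Under the same limit were 3 receptor and 3 feedback genes. Of these, ENG, ACVR2B and NEDD4L lay under the CsiRNA range in all NEAT1siRNA libraries, and are named after their values had been seen. Over all genes tested, which exclude these, 19.3% lay under that range. ACVR1C, LDLRAD4 and DCN overlapped between groups, with higher means with NEAT1siRNA, on a mean of at most 6.33 recovered reads. Endoglin (ENG), a TGF-β co-receptor, was at 0.872, 0.758 and 0.731 TPM with CsiRNA and at 0.604, 0.611 and 0.425 TPM with NEAT1siRNA (adjusted p = 0.146 in the limma fit with no filter). ACVR2B, a type II activin receptor, was at 0.686, 0.772 and 0.746 TPM with CsiRNA and at 0.548, 0.541 and 0.519 TPM with NEAT1siRNA (limma adjusted p = 0.0750). NEDD4L, a ubiquitin ligase that acts on activated SMAD2 and SMAD3, was at 0.668, 0.493 and 0.630 TPM with CsiRNA and at 0.386, 0.396 and 0.393 TPM with NEAT1siRNA (limma adjusted p = 0.0913). None of these 3 passed the threshold.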
